A study of Homo sapiens with 6 samples.

Results

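The transcripts described here encode the core small RNA silencing machinery of human cells: the Argonaute proteins AGO1, AGO2, AGO3 and AGO4, the nucleases DROSHA and DICER1, the Dicer partner TARBP2, and the GW182 proteins TNRC6A, TNRC6B and TNRC6C. They were chosen by name and role, by a rule that used no measured value but was written with earlier results of these data known, and all 10 were among the 14168 genes of the deposited table. Polyadenylated RNA was measured in BJ, an established human fibroblast line from foreskin with the genotype label WT, after treatment with an siRNA. In 3 libraries this was a control siRNA, and in the other 3 it targeted AGRN, which encodes the extracellular proteoglycan agrin. All 6 libraries therefore come from cells treated with an siRNA, and no untreated cells are among them, so an effect that the siRNAs share cannot be seen. Whether libraries of a group stem from separate cultures is not stated, so the spread behind each p-value may be technical. The labels give no siRNA sequence, dose or collection time.

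A transfected siRNA works through proteins that the cell uses for its own microRNAs. For microRNAs, Drosha cuts the hairpin out of a long nuclear transcript, and Dicer, with TRBP, cuts the hairpin to a short duplex; an siRNA enters after these cuts. An Argonaute protein then holds a single strand of the duplex and pairs its seed, bases 2 to 8, with target RNAs. AGO2 is known for cutting fully paired targets, and the GW182 proteins link any Argonaute to the deadenylases and decapping enzymes that remove a target messenger RNA.

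Each library held 42736368 to 48246613 reads on listed genes, and each measurement of a member rested on 410 to 4691 reads. Library values are always listed in the order of replicates 1, 2 and 3. Values are scaled CPM, the authors' deposited per-million values, and differences are on a log2(value + 0.5) scale, tested with limma over 13206 genes with Benjamini-Hochberg adjustment. A gene was called at an adjusted p under 0.05. AGRN fell by 63.6%, from 779 ± 31.6 to 284 ± 16.6 scaled CPM (SD, n = 3 each; limma adjusted p = 3.19e-06). In all, 28.7% of the tested genes were called, 15.2% higher and 13.5% lower with the agrin siRNA. The groups did not overlap for 45.2% of them. Rescaling the libraries without mitochondrial and the 10 most abundant genes changed the split of all calls from 2005 higher and 1783 lower to 1574 and 2260. Fibroblast markers were abundant, with COL1A2, COL1A1 and COL3A1 at 19665, 15259 and 7187 scaled CPM in the control group, and 2 of 10 fibroblast markers rose and 3 fell. KRT1 and CDH5, which mark keratinocytes and endothelium, were at 0 in every library, and 6 of 8 epithelial markers had a mean under 1. Markers of other cell types with a mean of at least 1 were CLDN1, KRT10, TEK, CD14, CD68, PMEL and MITF, of which CLDN1 (15.4 to 38.0) and CD68 (131 to 261) rose the most. CD68 overlaps AC016876.2 on the same strand, which was also higher (0.33, limma adjusted p = 0.000384), so its value is uncertain. The summed epithelial markers were at 44.2 to 48.0 in control and 69.1 to 74.9 in agrin siRNA libraries, and the summed blood markers at 125 to 143 and 261 to 269. Their part in the results below was not tested. In bulk RNA, fewer cells of a type and less RNA per cell cannot be told apart.

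Most of the silencing machinery did not pass the test, and TNRC6C had the largest difference of the 10 members. Of the 10 members, all of which passed the filter on low values, 1 rose (TARBP2), 1 fell (TNRC6C) and 8 did not pass, against 28.7% called among all tested genes. The groups did not overlap for 4 of the 10, namely AGO1, AGO2, TNRC6C and TARBP2, against 45.2% of all genes. These shares are near the background and are no result about the members as a group. The median difference over the members was -0.01 on the log2 scale, and over all tested genes -0.0001. The median absolute difference was 0.07 over the members and 0.11 over all tested genes. edgeR and DESeq2 on the recovered reads called the same pair of members, TARBP2 and TNRC6C. For the 8 members that did not pass, the 95% intervals of the difference, as a percent of the control level, lay between -18.6% and 24.4%. With 3 libraries a group, the exact two-sided permutation p has a floor of 0.1, the value found for AGO1, AGO2, TARBP2 and TNRC6C.

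**Figure D1:**
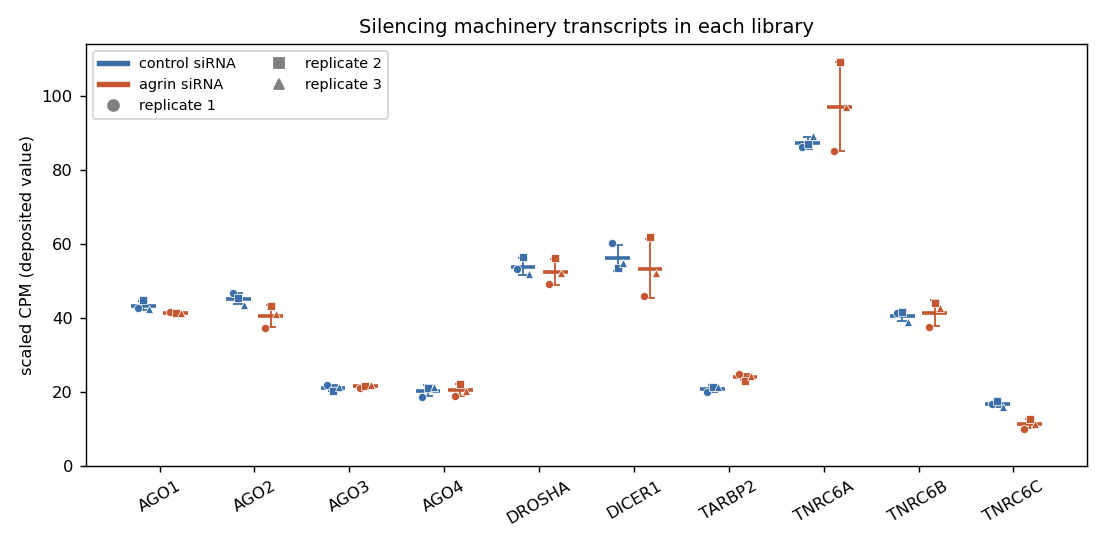
Deposited values (scaled CPM, linear axis from 0) of the 10 members in each library; points are libraries, horizontal bars group means and error bars SD over 3 libraries. TNRC6C in agrin siRNA libraries (10.1 to 12.6) lies below every control library (16.0 to 17.5), while most other members overlap between groups.

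**Figure D2:**
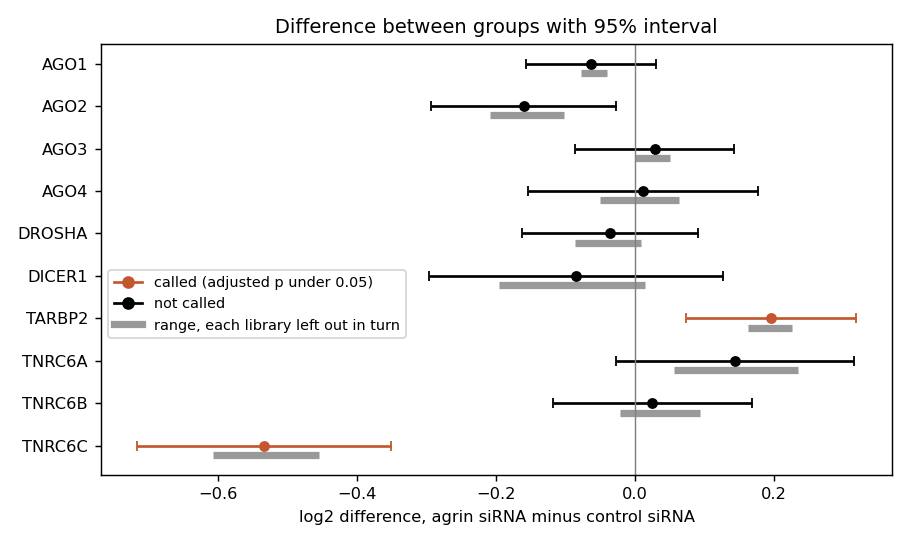
Log2 difference between agrin siRNA and control siRNA for each member with its 95% interval from limma (points and whiskers), and the range of the difference when each library is left out in turn (grey bars). TNRC6C at -0.53 and TARBP2 at 0.20 are the members called.

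TNRC6C was the member with the clearest difference. GW182 proteins carry many glycine-tryptophan repeats that bind Argonaute, and a region that recruits the CCR4-NOT deadenylase. TNRC6C (ENSG00000078687.17) lies on the plus strand of chromosome 17, at positions 77959240 to 78108835 of GRCh38. It stood at 16.6, 17.5 and 16.0 scaled CPM with the control siRNA against 10.1, 12.6 and 11.5 with the agrin siRNA. Every agrin siRNA library was below every control library. The mean went from 16.7 ± 0.744 to 11.4 ± 1.26 (SD, n = 3 each), so that it fell by 31.7%, with a log2 difference of -0.53, a standard error of 0.08 and an adjusted p of 0.0014 (limma). Its absolute difference exceeded that of 95.9% of all tested genes. The call held in all 18 alternatives, with log2 differences between -0.61 and -0.45 and an adjusted p of at most 0.0102. TNRC6C-AS1, which overlaps the end of TNRC6C on the other strand, was at 0.0909 scaled CPM in the control and 0.0711 in the agrin siRNA group, where 3 reads correspond to 0.0681 to 0.0761.

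The paralogs of TNRC6C did not pass the test. TNRC6A, on chromosome 16 (positions 24610209 to 24827632, plus strand), was at 86.1, 87.0 and 89.3 scaled CPM with the control siRNA against 85.2, 109 and 97.2 with the agrin siRNA. Agrin siRNA replicate 1 lay below all controls and replicates 2 and 3 above them, and the log2 difference of 0.14 did not pass (limma adjusted p = 0.188). Without agrin siRNA replicate 1 it was 0.23 and passed (limma adjusted p = 0.00829). TNRC6B, on chromosome 22 (positions 40044817 to 40335808, plus strand), went from 40.6 ± 1.51 to 41.4 ± 3.48 scaled CPM (SD, n = 3 each), with a 95% interval of the difference from -7.88% to 12.3%. As a share of the summed deposited values of the GW182 genes, TNRC6C took 11.6%, 11.9% and 11.1% in the control libraries and 7.62%, 7.61% and 7.58% in the agrin siRNA libraries. The share was thus nearly equal in the 3 agrin siRNA libraries, although the TNRC6C level itself spread from 10.1 to 12.6 among them. TNRC6A took 60.4% ± 1.31 in control and 64.7% ± 0.926 in agrin siRNA libraries, and TNRC6B 28.1% ± 0.924 and 27.7% ± 0.933 (SD, n = 3 each).

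Among the Argonaute genes, limma called 0 of 4, as did edgeR and DESeq2, against 28.7% called by limma among all tested genes. With so few genes this is no result about the family. The unadjusted limma p of AGO2 was 0.0232. AGO2 lies on the minus strand of chromosome 8 at positions 140520156 to 140635619. It was at 46.7, 45.5 and 43.6 scaled CPM with the control siRNA against 37.3, 43.3 and 41.0 with the agrin siRNA, so the groups did not overlap. The log2 difference was -0.16 with a standard error of 0.06, and the adjusted p was 0.0707 (limma). It ranged from 0.01 to 0.225 over the alternatives: AGO2 passed without agrin siRNA replicate 2 (log2 difference -0.21, adjusted p = 0.01) and with the rescaled libraries (-0.19, adjusted p = 0.0359). AGO1 was at 42.8, 44.8 and 42.5 scaled CPM with the control siRNA against 41.8, 41.3 and 41.5 with the agrin siRNA. These groups did not overlap either, but the difference was small, -0.06 (limma adjusted p = 0.288), with an interval from -10.3% to 2.16%. AGO3 went from 21.1 ± 0.772 to 21.5 ± 0.333 scaled CPM and AGO4 from 20.4 ± 1.51 to 20.5 ± 1.56 (SD, n = 3 each). Their intervals ran from -5.77% to 10.4% of control for AGO3, and from -10.2% to 13.02% for AGO4.

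AGO4, AGO1 and AGO3 sit in that order on the plus strand of chromosome 1, at positions 35808172 to 35857890, 35869808 to 35930528 and 35930718 to 36072500. Only 189 bases separate the annotated end of AGO1 from the start of AGO3, and 11917 bases separate AGO4 from AGO1. None of the 3 clustered genes passed (limma adjusted p = 0.927, 0.288 and 0.708 for AGO4, AGO1 and AGO3). AGO2 took 34.8% ± 1.067 of the summed Argonaute values in control libraries and 32.6% ± 1.24 in agrin siRNA libraries (SD, n = 3 each), and AGO1 33.3% ± 0.594 and 33.5% ± 1.44. These shares are not divided by length. Per kilobase of all annotated exons joined, AGO2 took 29.2% ± 1.27 in control and 27.2% ± 0.899 in agrin siRNA libraries. On that scale AGO1 took 31.9% ± 0.501 and 31.9% ± 1.55 (SD, n = 3 each). The summed Argonaute values were 130.1 ± 1.56 scaled CPM in control and 124 ± 4.58 in agrin siRNA libraries (SD, n = 3 each).

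Of the processing enzymes, TARBP2 rose and the nucleases did not pass. TARBP2 encodes TRBP, a double-stranded RNA binding protein that works with Dicer; the gene lies on the plus strand of chromosome 12 at positions 53500921 to 53506431. It was at 19.9, 21.4 and 21.4 scaled CPM with the control siRNA against 24.8, 23.1 and 24.3 with the agrin siRNA, with no overlap. The increase of 14.9% gave a log2 difference of 0.20 with a standard error of 0.05 and an adjusted p of 0.0248 (limma). This call was near the threshold. The limma adjusted p was 0.115 without control replicate 1, 0.0592 without control replicate 2 and 0.0534 without control replicate 3. In the agrin siRNA group, leaving out replicate 1 gave 0.0503, replicate 3 gave 0.0861 and replicate 2 gave 0.00877. TARBP2 remained higher in each of these fits, with differences between 0.16 and 0.23.

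DICER1, on the minus strand of chromosome 14 (positions 95086228 to 95158010), was at 60.3, 53.6 and 54.8 scaled CPM with the control siRNA against 46.1, 61.9 and 52.1 with the agrin siRNA. The agrin siRNA libraries spread on both sides of the controls, with a coefficient of variation of 14.95% against 6.34% among controls. The log2 difference of -0.08 did not pass (limma adjusted p = 0.534), with an interval from -18.6% to 9.18%. Leaving out replicate 2 of the agrin siRNA group gave -0.20 (limma adjusted p = 0.0278), and leaving out its replicate 1 gave 0.01 (0.907). DROSHA, on the minus strand of chromosome 5 (positions 31400497 to 31532196), went from 53.9 ± 2.28 to 52.6 ± 3.52 scaled CPM (SD, n = 3 each; limma adjusted p = 0.665), with an interval from -10.7% to 6.47%. DGCR8, the RNA-binding partner of Drosha, was at 30.3, 27.8 and 29.1 scaled CPM with the control siRNA against 30.2, 27.8 and 29.3 with the agrin siRNA. XPO5, the exporter of hairpins from the nucleus, had a difference of -0.07 (limma adjusted p = 0.311), and PRKRA, another Dicer partner, of -0.10 (limma adjusted p = 0.103). These last 3 genes were chosen for their roles, after their values were seen.

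The levels can be set against each other only per length of transcript. Per kilobase of all annotated exons of the gene joined, DROSHA (6.93 ± 0.293 scaled CPM per kilobase) and TNRC6A (6.77 ± 0.124) were highest in the control libraries (SD, n = 3). TARBP2 (5.12 ± 0.212) and DICER1 (4.58 ± 0.29) followed, then AGO1 (3.13 ± 0.0907), AGO2 (2.86 ± 0.101) and AGO4 (2.80 ± 0.208). TNRC6B (2.03 ± 0.0753), TNRC6C (1.502 ± 0.067) and AGO3 (0.997 ± 0.0365) were lowest. The 3 control values overlapped between DROSHA and TNRC6A, between TARBP2 and DICER1, and between AGO2 and AGO4, and did not overlap between the other neighbours. Per kilobase of the longest coding transcript, TARBP2 came first at 11.2 ± 0.465, ahead of TNRC6A (10.4 ± 0.19) and DROSHA (10.2 ± 0.429). The order of means from DICER1 down to AGO3 was the same. On that length the control values of AGO1 (3.12, 3.27 and 3.10) and AGO2 (3.20, 3.12 and 2.99) overlapped. AGO3, the Argonaute gene with the longest exon sequence, had the lowest level of the family per kilobase on both lengths. Before division by length its control mean was 21.1 scaled CPM, beside 20.4 for AGO4. The lengths are annotated ones, and the transcript ends used in these cells were not examined. TNRC6C was ninth of the 10 in the agrin siRNA libraries too, at 1.03 ± 0.113 per kilobase of joined exons, next to AGO3 at 1.02 ± 0.0158 (SD, n = 3 each), and there the values of these neighbours overlapped.

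**Figure D3:**
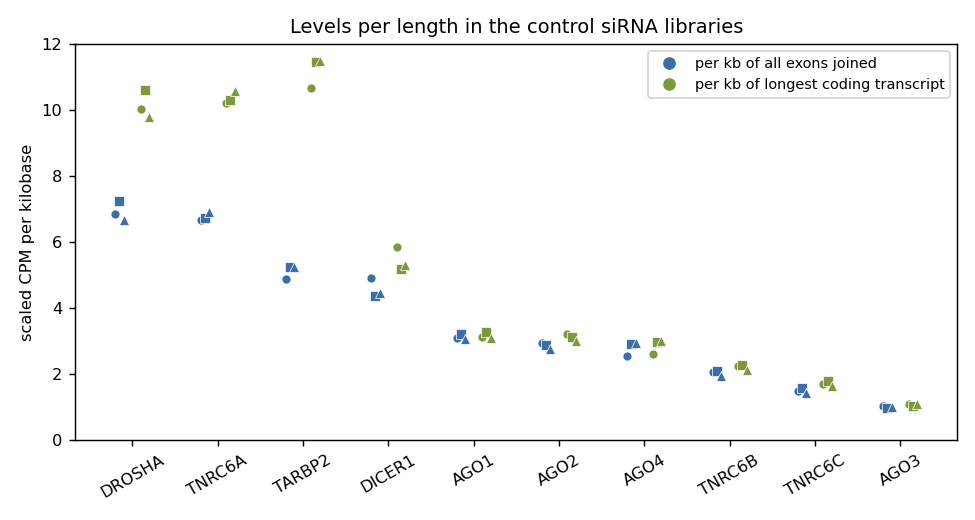
Control siRNA values per kilobase (scaled CPM per kilobase, linear axis from 0) for each member, ordered by the level per kilobase of joined exons; each point is a library, with circle, square and triangle for replicates 1, 2 and 3. Blue divides by all exons joined and green by the longest coding transcript, which moves TARBP2 from the third place to the first.

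The agrin siRNA libraries differed among themselves in the machinery. In 7 of the 10 members replicate 1 was lowest, replicate 3 in the middle and replicate 2 highest among agrin siRNA libraries. These were AGO2, AGO4, DICER1, DROSHA, TNRC6A, TNRC6B and TNRC6C. The same order was found in 26.7% of all tested genes. Replicate 2 was above replicate 1 by a median of 0.21 (log2) over the members and by -0.006 over all tested genes. The gap was widest for DICER1 (0.42) and TNRC6A (0.36), while TARBP2 (-0.10) and AGO1 (-0.02) went the other way. The median coefficient of variation of the members was 3.93% among controls and 7.53% among agrin siRNA libraries, beside 3.63% and 5.75% over all tested genes. The total reads were 44321473, 47120094 and 48246613 in agrin siRNA replicates 1, 2 and 3, and the mitochondrial share of reads 0.495%, 0.454% and 0.472%. Pairs of agrin siRNA libraries differed from each other by 10.3 to 25.01 in chi-square per degree of freedom, and pairs of controls by 4.45 to 5.895.

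Transcript length moved with both gaps. Of the 10 members, 8 were in the longest of 4 length classes of equal size, with joined exons of 7411 to 91667 bases. In that class replicate 2 of the agrin siRNA group exceeded replicate 1 by a median of 0.09 (log2), and in the shortest class the median was -0.07. The median difference between agrin siRNA and control was -0.05 in the longest class and 0.06 in the shortest. TARBP2, with 4090 bases, was in the second class from the short end, where that median was 0.01, and TNRC6C, with 11111 bases, in the longest. The part of length in the differences of TARBP2, AGO2 and TNRC6C was not tested. These lengths were examined after the values were seen.

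**Figure D4:**
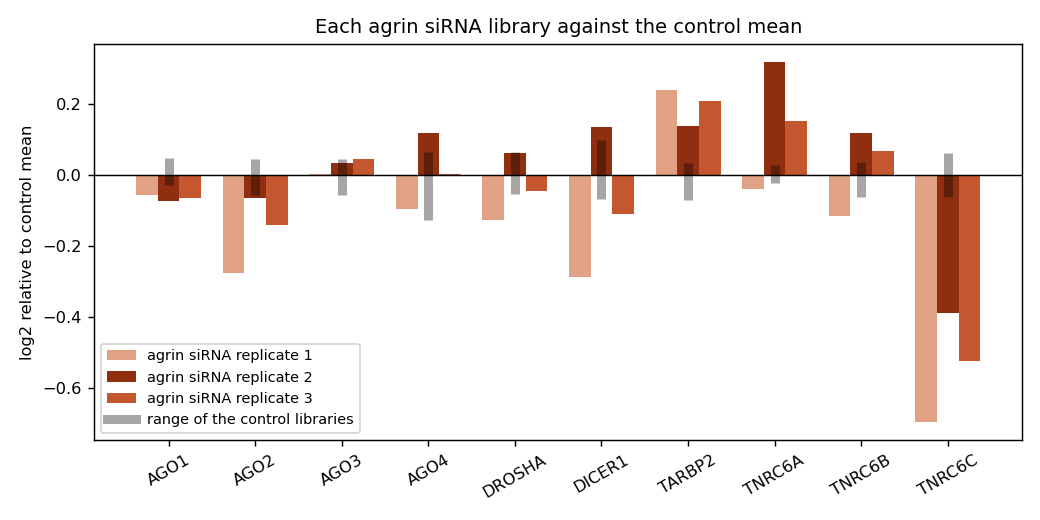
Log2 value of each agrin siRNA library relative to the control mean for the 10 members (bars, one per replicate), with the range of the 3 control libraries as grey vertical lines. Replicate 1 is the lowest and replicate 2 the highest bar in 7 members. All 3 replicates are below the control range for AGO1, AGO2 and TNRC6C and above it for TARBP2.

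Most genes for proteins that work with the core machinery did not pass either. Of 97 tested partners in 5 lists, 9 rose, 7 fell and 81 did not pass, so 16.5% were called against 28.7% of all tested genes, and their median difference was -0.008. Among 23 partners of microRNA processing and export, DDX17, an RNA helicase of the Drosha complex, was lower (-0.15, limma adjusted p = 0.0148), and the most abundant, HNRNPA2B1, was at -0.04 (limma adjusted p = 0.484). Among 12 chaperones that help to load Argonaute, HSPA8 (0.15) and DNAJB1 (0.13) were higher. Among 22 cofactors of Argonaute, MOV10, a helicase that binds Argonaute, went from 96.9 ± 4.98 to 115 ± 3.59 scaled CPM (SD, n = 3 each), a difference of 0.25 (limma adjusted p = 0.00419). P4HB, which encodes protein disulfide isomerase and is a subunit of the prolyl hydroxylase that acts on Argonaute, was at 0.15, and PUM2, a protein that binds 3′ UTRs, at -0.15.

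Downstream of GW182, 4 of 19 genes of the deadenylase list (21.1%) were called, against 28.7% of all tested genes. This list also holds BTG, TOB and poly(A) binding proteins, which are not deadenylase subunits. Of the list of decapping and P-body genes, 6 of 21 (28.6%) were called. On the list of the CCR4-NOT and PAN2-PAN3 deadenylases, BTG2 (0.45, limma adjusted p = 0.000904) and BTG1 (0.19), which bind the CCR4-NOT nucleases, were higher. The subunits CNOT10 (-0.17) and CNOT3 (-0.16) were lower, and PABPC1, the poly(A) binding protein and the most abundant of the list, was at -0.11 (limma adjusted p = 0.117). BTG2 was at 26.3, 26.4 and 23.7 scaled CPM with the control siRNA against 32.6, 36.7 and 35.5 with the agrin siRNA, with no overlap. Among the decapping and P-body genes, LSM1 (0.20), LSM7 (0.17) and EIF4E2 (0.12) were higher, and DCP2, the decapping enzyme (-0.21), LSM14B (-0.16) and LSM14A (-0.15) were lower. LSM7 lies within AC005258.1 on the other strand, which was also higher (0.13, limma adjusted p = 0.0419), so the value of LSM7 is uncertain. DDX6, the most abundant of the decapping list, was at -0.04 (limma adjusted p = 0.548). Of the 16 partner genes called, only MOV10, BTG2 and LSM1 were called in all 18 alternatives. The other 13 lost their call without at least 1 library. Without control replicate 1 all 13 did, with limma adjusted p-values from 0.066 (CNOT10) to 0.175 (P4HB). Without control replicate 2 all but BTG1 did, from 0.0574 (DCP2) to 0.153 (DNAJB1), and without agrin siRNA replicate 3 all but BTG1 did, from 0.0626 (CNOT3) to 0.123 (P4HB). Leaving out control replicate 3 ended the calls of DNAJB1, PUM2, P4HB, CNOT3, CNOT10, BTG1, LSM14A and EIF4E2, from 0.055 (LSM14A) to 0.13 (EIF4E2). Leaving out agrin siRNA replicate 1 ended those of DNAJB1, P4HB, LSM14A, EIF4E2 and LSM7, from 0.0598 (EIF4E2) to 0.0828 (LSM7), and leaving out replicate 2 that of CNOT3 (0.0658). HSPA8, DNAJB1, PUM2, P4HB, CNOT3, BTG1, LSM14A, EIF4E2 and LSM7 also lost their call in 1 to 5 of the 12 settings that kept all libraries. Proteins that sense, bind or edit double-stranded RNA, with the signalling adaptor MAVS, are a related list. Of 11 tested, 5 rose (TLR3, IFIH1, DDX58, DHX58 and ADARB1, from 0.58 to 0.32), 1 fell (STAU2, -0.24), and ADAR was at 0.12 (limma adjusted p = 0.126). That is 54.5% called against 28.7% of all tested genes. The call of DDX58 was lost without control replicate 1 (adjusted p = 0.0802). STAU2 overlaps AC022826.2 on the same strand, which was also lower (-0.23, limma adjusted p = 0.0481), so the value of STAU2 is uncertain.

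**Figure D5:**
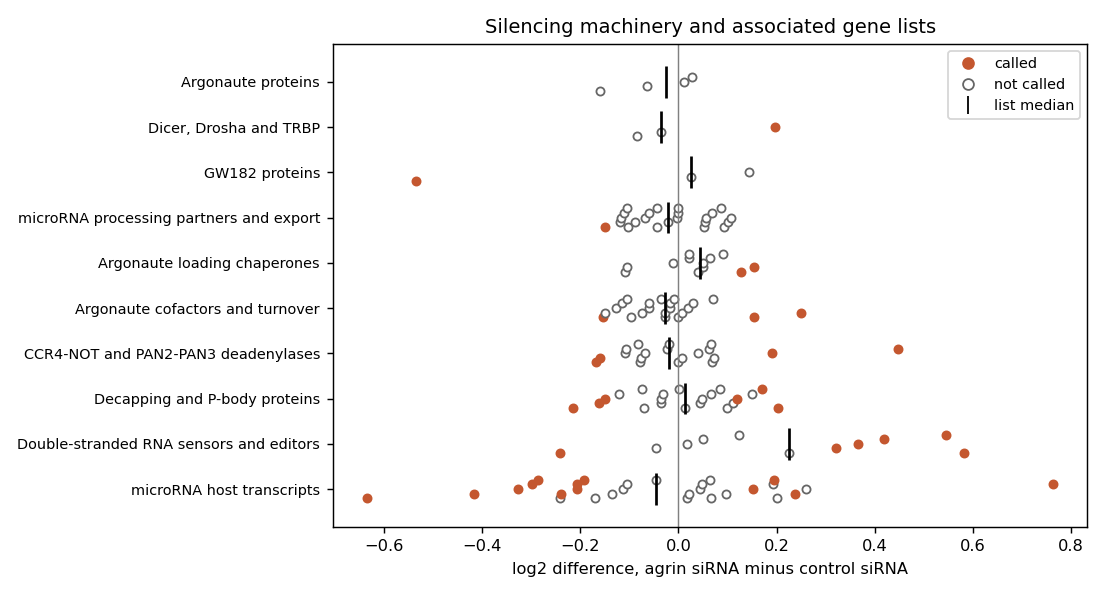
Log2 difference between agrin siRNA and control siRNA for each tested gene of the silencing machinery and of its associated lists; filled points were called at an adjusted p under 0.05, and vertical lines are list medians. Most partners lie within 0.2 of 0, while the sensor and host transcript lists spread from -0.63 to 0.76.

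The long transcripts from which microRNAs are cut are the substrates of the machinery. Of 29 tested host transcripts, 4 rose, 9 fell and 16 did not pass; 44.8% were called against 28.7% of all genes. Mature microRNAs have no poly(A) tail and were not measured, and Drosha can cut a hairpin from an intron without lowering the spliced host. The 4 largest changes were in MIR222HG, PANK1, SREBF2 and MIR193BHG. MIR222HG, the host of miR-221 and miR-222, went from 3.17 ± 0.361 to 5.73 ± 0.728 scaled CPM (SD, n = 3 each), a difference of 0.76 (limma adjusted p = 0.00105). PANK1, a pantothenate kinase whose gene holds miR-107, was at 7.30, 7.64 and 7.68 scaled CPM with the control siRNA against 4.27, 5.05 and 4.75 with the agrin siRNA, a difference of -0.63 (limma adjusted p = 0.000507). SREBF2, the sterol regulator whose gene holds miR-33a, was at -0.42 (limma adjusted p = 0.000307) and MIR193BHG at -0.33 (limma adjusted p = 0.0208; 0.0829 without control replicate 2, 0.076 without control replicate 1 and 0.0675 without agrin siRNA replicate 3).

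Hosts that carry the same microRNA did not always move together; those named next were chosen after their values were seen. CTDSP2 (-0.19) and CTDSPL (-0.21), which encode related phosphatases and each hold a copy of miR-26a, both fell and were called in all 18 alternatives. CTDSP1, which holds miR-26b with the same seed, was at 0.07 (limma adjusted p = 0.403). SLIT3 and SLIT2, which encode guidance ligands and each hold a copy of miR-218, moved in opposite directions: SLIT3 was at -0.29 (limma adjusted p = 0.0184) and SLIT2 at 0.20 (limma adjusted p = 0.0459). SLIT3 no longer passed without control replicate 1 (limma adjusted p = 0.0841), control replicate 2 (0.0802) or agrin siRNA replicate 3 (0.0628). Among the fits with a library left out, SLIT2 passed only without agrin siRNA replicate 1. Its limma adjusted p was 0.093, 0.172 and 0.0637 without control replicates 1, 2 and 3, and 0.0535 and 0.161 without agrin siRNA replicates 2 and 3. SLIT2 also failed to pass in 6 of the 12 settings that kept all libraries. MIR100HG, the long noncoding host of let-7a-2, miR-100 and miR-125b-1, rose from 106 ± 2.91 to 125 ± 1.40 scaled CPM (SD, n = 3 each), a difference of 0.24 (limma adjusted p = 0.00166), and was called in all 18 alternatives.

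Some of the mature sequences of microRNAs in these hosts are listed here with their seeds. Other arms, and other microRNAs of MIR100HG, are left out, and loading was not measured. The sequences are those of RefSeq on GRCh38.p14, written 5′ to 3′ with the seed, bases 2 to 8, in capitals.
hsa-miR-107 (PANK1, chr10:89592756-89592778, minus strand): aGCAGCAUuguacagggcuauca
hsa-miR-26a-5p (CTDSP2, chr12:57824658-57824679, minus strand; the same letters in CTDSPL, chr3:37969413-37969434, plus strand): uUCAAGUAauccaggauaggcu
hsa-miR-26b-5p (CTDSP1, chr2:218402657-218402677, plus strand): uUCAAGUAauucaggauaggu
hsa-miR-218-5p (SLIT2, chr4:20528299-20528319, plus strand; the same letters in SLIT3, chr5:168768211-168768231, minus strand): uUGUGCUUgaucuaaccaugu
hsa-miR-221-3p (MIR222HG, chrX:45746180-45746202, minus strand): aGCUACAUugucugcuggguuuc
hsa-miR-222-3p (MIR222HG, chrX:45747036-45747056, minus strand): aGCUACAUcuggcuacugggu
hsa-let-7a-5p (MIR100HG, chr11:122146568-122146589, minus strand): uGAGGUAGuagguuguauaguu
The pair from MIR222HG shares its seed, as do miR-26a and miR-26b.

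The members are themselves messenger RNAs with long 3′ untranslated regions, and sites for these seeds are found in them. The longest annotated 3′ UTR was above the median of 1415 bases of 11854 tested genes for 8 of the 10 members, with 16755 bases for AGO3, 12567 for TNRC6B, 11888 for AGO2 and 10921 for AGO1. It was 450 bases for TARBP2 and 935 for DROSHA. The sense strand of each longest 3′ UTR was searched for the complement of bases 2 to 8 of 10 microRNAs with 9 seeds. The complement of the miR-107 seed, ATGCTGC, occurred 19 times in 6 members, a density of 0.277 per kilobase beside 0.0834 over the 11854 3′ UTRs. DICER1 held 5 of these sites and AGO2 5, AGO1 and TNRC6B 3 each, AGO4 2 and AGO3 1. Of the 11854 tested genes with a 3′ UTR, 14.4% had at least 1 such site and 0.0506%, or 6 genes, had 5 or more. Among genes with a 3′ UTR at least as long as that of DICER1, 39.1% had at least 1 and 0.285% had 5 or more. DICER1 is a known target of the microRNAs with this seed. Where the site is followed by T, as for 7 of the 19, it overlaps the complement TGCTGCT of the miR-15 and miR-16 seed.

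The 5 sites of DICER1 are shown with the site in capitals, as written in GENCODE release 29, in order along the 3′ UTR from its first base.
DICER1, bases 1034 to 1040: cacacctaaaatATGCTGCagatttta
DICER1, bases 1635 to 1641: atgcttcgtggaATGCTGCatttatat
DICER1, bases 2839 to 2845: gcagtcctaactATGCTGCgttttata
DICER1, bases 4110 to 4116: atttaccatcacATGCTGCagctgttt
DICER1, bases 4162 to 4168: catacagtaatcATGCTGCagaaattt
A site is a match of letters. PANK1 was lower and DICER1 did not pass (limma adjusted p = 0.534), and miR-107 was not measured.

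The complement of the miR-26a seed, TACTTGA, occurred in all 3 GW182 genes and in AGO3, 5 times in all. Its density was 0.073 per kilobase over the members beside 0.0822 over all tested 3′ UTRs. This motif is found in 14.2% of all tested 3′ UTRs and in 29.5% of those at least as long as that of TNRC6A. In each GW182 gene a site lies within the first 650 bases of the 3′ UTR, and the letters around it are shown so that the paralogs can be compared.
TNRC6A, bases 153 to 159: tatcagtttgaaTACTTGAatcatgca
TNRC6B, bases 238 to 244: tcactcttgaaaTACTTGAatcatgaa
TNRC6C, bases 644 to 650: caaacatgcaaaTACTTGAatccagca
All 3 hold the site. TNRC6C was lower, and TNRC6A and TNRC6B did not pass. miR-26a was not measured, and the part of the site in these differences was not tested. The let-7 complement CTACCTC was found in AGO1, AGO2, AGO3 and TARBP2, 5 times in all (11.2% of all tested 3′ UTRs; 0.073 per kilobase in members beside 0.0616 over all). The miR-221 and miR-222 complement ATGTAGC occurred once each in AGO2, AGO4, DICER1 and TNRC6B (9.49%; 0.0584 per kilobase beside 0.0518). The miR-218 complement AAGCACA occurred once each in AGO2, AGO3, AGO4 and TNRC6C (15.7%; 0.0584 per kilobase beside 0.0934). For miR-125b the members held 0.0438 per kilobase from 3 sites, beside 0.102 over all tested 3′ UTRs. For miR-33a the density was 0.0438 from 3 sites, beside 0.054. It was 0.0146 from 1 site for miR-193b, beside 0.068, and 0.0146 from 1 site for miR-100, beside 0.0061. With so few sites these densities are rough. DROSHA had none of the 9 motifs.

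The genes whose pattern over the 6 libraries was closest to that of TNRC6C, by the root-mean-square distance of centred log2 values, were EPB41L5 (distance 0.03), AL137782.1 (0.04) and APPL1 (0.04). The log2 difference between groups was -0.51 for EPB41L5, -0.60 for AL137782.1 and -0.48 for APPL1. The genes closest to TARBP2 were MRPL12, IPPK and OVCA2, each at a distance of 0.01 or 0.02, with differences of 0.19, 0.19 and 0.18. The libraries of a group share their treatment, so such distances are a description.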

How the data were processed

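RNA-seq covered 6 BJ libraries, with groups and replicate numbers from the labels. A stranded poly(A) kit was used, per the labels' protocols. The submitters' processing notes name hg38, HTSeq, SAMtools, edgeR and STAR 2.6.1d. No source used here gives the annotation, strand setting or gene filter, so overlapping and antisense genes are uncertain. The authors deposited a table named CPM whose signal columns sum to between 1073188 and 1096534, here called scaled CPM. Each value was a whole multiple of 1 step per library (100% of values, tolerance 0.01 of a read), which gave whole reads. The design had been set for CPM; the same test was kept. The exact count of reads was used in edgeR 4.0.16 and DESeq2 1.42.0 as alternatives.

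The 13206 genes that reached a value of 1 in 3 or more libraries were tested with limma 3.58.1 in R 4.3.3. The test was two-sided, with a variance trend, a pseudocount of 0.5 and no covariate. Simulated data used to check the fit had the same relative spread in all libraries, taken from the controls. The wider spread among agrin siRNA libraries was therefore not covered. Lists were described by counts. Lengths, coordinates and 3′ UTRs came from GENCODE release 29 on GRCh38 (14144 symbols matched 1 gene), and microRNA sequences from RefSeq, in which 29 of 29 tested hosts matched. Named genes were the 10 members, the called partners (the 4 largest for the hosts), the most abundant of each list, AGRN, cell type markers and the nearest patterns. DGCR8, XPO5, PRKRA, CTDSP1, CTDSP2, CTDSPL, SLIT2, SLIT3 and MIR100HG, overlapping genes and the seeds searched were chosen after their values were seen. The members and lists were chosen with earlier results of these data known. Alternatives were other pseudocounts, filters, scalings, variance priors, the replicate number as a block, and leaving out each library. Figures used matplotlib 3.10.9.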

Additional observations from a re-analysis of the deposited data

How the results depend on the processing

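The call of TNRC6C held in all 18 alternatives and that of TARBP2 in 13, the exceptions being single libraries left out. With each library left out in turn, the number of members called ran from 1 to 4, that of genes called higher from 1121 to 2538 and that of genes called lower from 940 to 2586. TNRC6C was the only member called without any 1 control library or agrin siRNA replicate 3; TNRC6A and TNRC6C were called without agrin siRNA replicate 1, and AGO2, DICER1, TARBP2 and TNRC6C without agrin siRNA replicate 2. Counts of genes were lowest without control replicate 1 and highest without agrin siRNA replicate 2, and the cause was not tested. The other alternatives called 2 members, except 3 with the rescaled libraries. Whether same-numbered libraries were paired is not stated. Their deviations correlated at -0.037, 0.175 and 0.202, and those of differently numbered libraries at -0.325 to 0.147. The deviations are centred within only 3 libraries a group, so these values cannot decide it. With the replicate block 1905 genes were higher and 1775 lower, and 2 members were called. The differences of AGO3, AGO4, DROSHA and TNRC6B changed sign in some alternatives with no call in any, and that of DICER1 reached 0.01 without agrin siRNA replicate 1. Each member rested on 410 to 4691 reads a library and 3 libraries a group, and the printed intervals give the precision this allows.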
